A study of Mus musculus with 6 samples.

Results

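Fibroblast sub-cluster 7 of cultured mouse retinal pigment epithelium (RPE) and choroid held 214 of the 25428 cells that were profiled. Its members were all cells to which the authors' clustering of the fibroblasts gave the number 7, whatever cell type name they carried, and they made up 214 of the 23256 cells with a fibroblast sub-cluster. They were compared with sub-clusters 1 to 4, the largest of the 9 sub-clusters, which together held 21492 cells. Every sample contributed members, with 53, 13 and 21 cells in Dram2 wt/wt replicates 1, 2 and 3 and 26, 79 and 22 cells in Dram2 ko/ko replicates 1, 2 and 3.

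Male mice of the C57BL/6J strain, 12 to 16 months old, were the source of the cells. The Dram2 wt/wt mice carried the intact gene, and the Dram2 ko/ko mice carried a constitutive CRISPR/Cas9 deletion of exon 4 of Dram2, which encodes a lysosomal membrane protein linked to autophagy. The layer behind the retina was dissected with the RPE, dissociated and cultured for 7 days before single-cell RNA sequencing, so that the levels are those of cultured cells and not of the tissue. There were 3 samples per genotype. Dram2 ko/ko replicate 3 was the only sample of batch 2 in the labels. Nothing states that the samples of a genotype came from separate mice, so the p-values measure the spread between these samples.

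Choroidal fibroblasts make and remodel the matrix of the vascular layer behind the retina. The vessels of that layer are also wrapped by mural cells, namely the pericytes of capillaries and the smooth muscle cells of larger vessels, which contract and sit in the basement membrane beside the endothelium. Mural cells are classically recognised by the PDGF receptor Pdgfrb with the potassium channel subunits Kcnj8 and Abcc9 or by contractile proteins such as Myh11, and fibroblasts by Pdgfra, Lum and Dcn. Many contractile genes are activated by serum response factor through a short DNA element called the CArG box.

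The CArG box was searched as CC, 6 letters of A or T, and GG, on both strands of the RefSeq promoters of GRCm38.p6. Each promoter ran from 250 bases before to 50 bases after the start of the gene. Boxes of another form or further away were not searched. Of the 25 genes that led sub-cluster 7, described below, 16 had a promoter in that table, with 19 promoters in all. The box was found in 2 of these 19 promoters (10.5%), against 535 of all 32851 promoters (1.63%). Of the smooth muscle list 6 of 10 genes had a promoter in that table, and of the pericyte list 7 of 10. None of these promoters held the box in that form, which does not show that these genes lack it. Both matches are shown because the box is a known element of contractile genes. The difference from the share over all promoters was not tested. The matches lie in the promoters of Lmcd1, which encodes a LIM domain cofactor of transcription, at chr6:112273533-112273562, and of Trpc6, which encodes a calcium-permeable channel, at chr9:8544010-8544039. Both are on the plus strand, with the box in capitals and 10 bases on each side.
Lmcd1: tgctccttgcCCTTTAAAGGagaagggcgt
Trpc6: cctttcgatcCCTTTAAAGGtggggatcgt
The box of Lmcd1 lay 215 to 206 bases before the RefSeq start and that of Trpc6 lay 122 to 113 bases before it. The same 10 letters, CCTTTAAAGG, were found at both genes. A match describes the sequence and does not show that a factor binds there.

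The 6 samples held between 96808998 and 122746184 UMIs (unique molecular identifiers, which count RNA molecules). The members of sub-cluster 7 summed to between 264850 UMIs in Dram2 wt/wt replicate 2 and 1203854 UMIs in Dram2 ko/ko replicate 2. Their median was 18980.5 UMIs and 4951 genes per cell, against 24934.5 UMIs and 5849.5 genes in sub-clusters 1 to 4, and the median was lower in sub-cluster 7 in all 6 samples. None of the 214 cells had under 500 genes or over 20% mitochondrial counts. Doublets were not removed, and the cell names in the files are not barcodes, so shared barcodes could not be counted. Levels below are CPM, the UMIs of a gene summed over the cells of a sample and divided by their total, times 1000000, and log2 ratios were computed on mean CPM plus 5. The sub-clusters had been made from these genes, so differences between sub-clusters are given as descriptions with no test.

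Sub-cluster 7 carried genes of mural cells next to abundant matrix genes, and the usual fibroblast markers pointed in both directions. Mgp, which encodes an inhibitor of calcification, stood at 13612, 9386 and 11539 CPM in the Dram2 wt/wt group and at 19365, 14029 and 12880 CPM in the Dram2 ko/ko group. All 6 values lay above the highest value of sub-clusters 1 to 4, 2955 CPM. Col3a1, a fibrillar collagen gene, had a mean of 699 CPM against 206 CPM. In contrast, Pdgfra was at 12.6 ± 8.57 CPM (SD, n = 6) against 64.3 CPM, Lum at 11.9 ± 7.77 against 92.5 CPM and Dcn at 205 ± 93.2 against 750 CPM, each lower in sub-cluster 7 in every sample. Much of the gap for Lum and Dcn came from sub-cluster 3, at 361 and 2389 CPM with all samples pooled. Sub-clusters 1, 2 and 4 stood at 43.7 to 46.5 CPM for Lum and 424 to 466 CPM for Dcn, against 13.8 and 182 CPM in sub-cluster 7. Of the 10 fibroblast markers, 2 were higher and 4 lower in all 6 samples. Their sum was 12460 to 24033 CPM against 5433 to 6287 CPM, with Mgp at a mean of 13469 CPM in sub-cluster 7. With all samples pooled this sum was higher than in the other fibroblast sub-clusters and in the RPE, Endothelial, Pericyte and Myeloid cells. Across the 37144 genes with at least 1 UMI in either set of cells, 2.96% were higher and 24.5% were lower in all 6 samples. Among the 6984 genes at 20 CPM or more in either set, 12.0% were higher and 22.3% were lower. The deposited name of 185 of the 214 cells (86.4%) was Fibroblast. Another 16 cells were named Fibroblast 2, 12 Fibroblast proliferating and 1 Fibroblast-like. Since its markers follow the fibroblast list only in part, the group is called by its number here.

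Pericyte genes were higher in sub-cluster 7 than in sub-clusters 1 to 4 for most of the list, and the list summed to 714 to 1317 CPM over the samples against 196 to 299 CPM. Of its 10 members, 6 were higher in all 6 samples and none was lower in all 6, with a median log2 ratio of 1.21. Pdgfrb, the receptor that recruits pericytes to vessels, was at 290, 389 and 266 CPM in the Dram2 wt/wt group and at 418, 220 and 417 CPM in the Dram2 ko/ko group. All these values exceeded the 60.2 to 100.4 CPM of sub-clusters 1 to 4. Cspg4 (the proteoglycan NG2) was at 142 ± 15.7 CPM against 37.8 CPM, and Mcam, an adhesion molecule of mural and endothelial cells, was at 251 ± 65.5 CPM against 58.7 CPM.

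The channel genes were sparse. Kcnj8 was at 15.2 ± 6.94 CPM against 3.06 CPM, and 9.13% of the 208 cells with at least 5000 UMIs had a UMI of it after thinning to 5000 UMIs (95% Wilson interval 5.93 to 13.8), against 1.40% of cells in sub-clusters 1 to 4. Sub-cluster 3 stood at a like level, with 18.1 CPM against 17.0 CPM in sub-cluster 7 with all samples pooled. None of 249 Endothelial cells and none of the 292 cells with the deposited name Pericyte had a UMI of it at the thinned depth. The latter carried some pericyte markers and lacked others. At that depth Cspg4 was found in 59.6% of them, against 49.5% in sub-cluster 7 and 15.4% in sub-clusters 1 to 4, and Mcam in 68.5% against 59.6% and 21.7%. In contrast, Ndufa4l2, Abcc9, Higd1b and Notch3 were not found in them, Pdgfrb was found in 10.6% against 30.7% in sub-clusters 1 to 4, and Rgs5 in 2.74% against 12.1%. Values of these cells are given under their deposited name. Median depth before thinning was 18980.5 UMIs in sub-cluster 7, 9262.5 in Endothelial and 13598 in the cells named Pericyte. Abcc9 was at 8.23 ± 4.91 CPM against 1.22 CPM. Higd1b, a mitochondrial protein gene used as a pericyte marker, gave 11 UMIs in 7 of the 214 cells, and its mean was 2.31 CPM against 0.0187 CPM. Rgs5, a regulator of G protein signalling, was at 108 ± 53.8 CPM against 50.5 CPM but was higher still in sub-cluster 4, at 333 CPM over all samples. Notch3 followed the same order, with 28.1 ± 12.7 CPM in sub-cluster 7 and 49.2 CPM in sub-cluster 4. No UMI of Vtn was counted in sub-cluster 7.

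**Figure D1:**
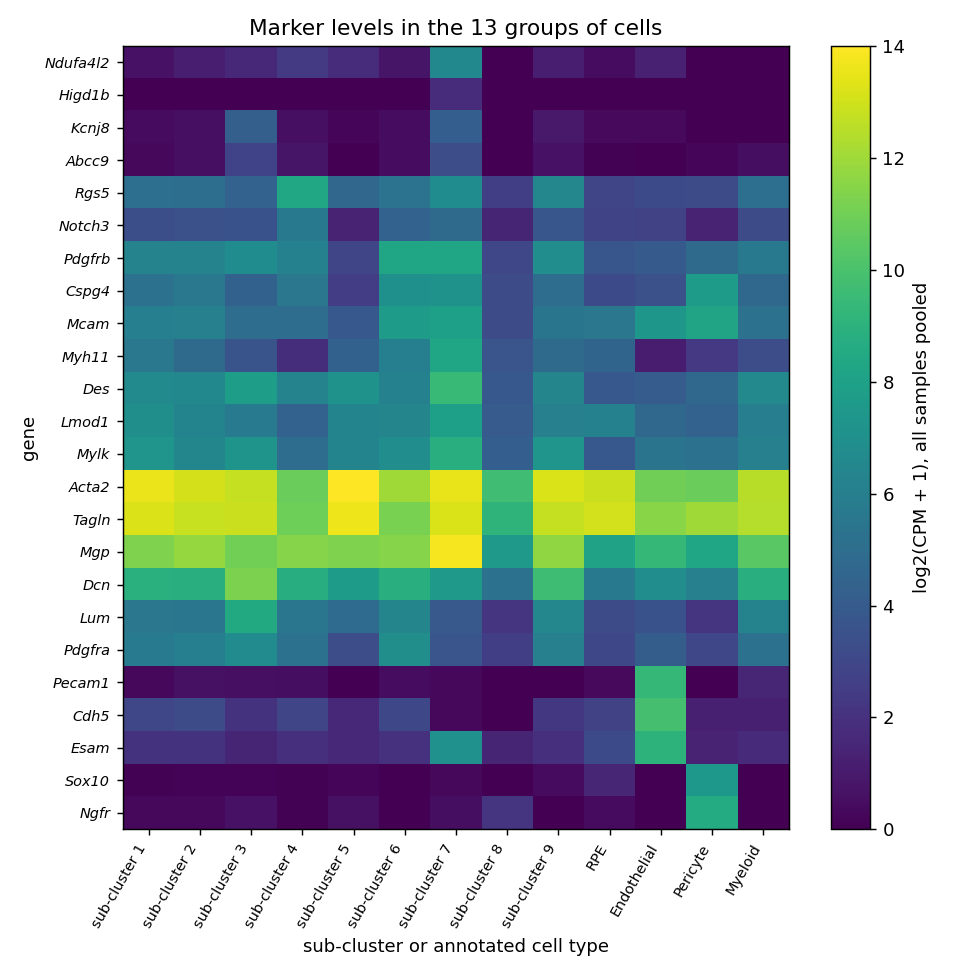
Levels of 24 marker genes (rows) in the 9 fibroblast sub-clusters and 4 further annotated cell types (columns), as log2 of CPM plus 1 with the cells of all samples pooled. In the column of sub-cluster 7, Ndufa4l2, Myh11, Des, Pdgfrb and Mgp are bright where Pecam1, Cdh5, Lum and Pdgfra are dark. The pericyte genes Higd1b, Abcc9 and Kcnj8 are dark there as well. The fibroblast gene Dcn, at 182 CPM, is brighter there than Ndufa4l2, at 92.9 CPM.

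Smooth muscle genes were higher for 8 of 10 members in all 6 samples, and 1 member, Cnn1 (calponin), was lower at 305 CPM against 448 CPM, although sub-clusters 3 and 4 stood below it, at 135 and 53.9 CPM. The list as a whole differed less than the pericyte list and had a median log2 ratio of 0.57. Acta2 (smooth muscle actin) was abundant in both sets of cells, at 11928 ± 1229 CPM against 9739 CPM, and Tagln (transgelin) stood at 9186 against 8263 CPM. Larger differences were found for 4 genes of contractile cells. Myh11, the smooth muscle myosin heavy chain, was at 332, 302 and 450 CPM in the Dram2 wt/wt group and at 273, 264 and 288 CPM in the Dram2 ko/ko group, against 22.3 to 45.3 CPM in sub-clusters 1 to 4. Des (desmin, the muscle intermediate filament) ranged from 668 to 854 CPM over the 6 samples against 104 to 127 CPM. Mylk, the myosin light chain kinase, was at 477 ± 75.8 CPM against 128 CPM, and Lmod1, an actin nucleator of smooth muscle, at 236 ± 38.0 CPM against 93.4 CPM. Myocd, the coactivator of serum response factor, was at 4.45 ± 3.01 CPM against 0.709 CPM and was not counted in Dram2 ko/ko replicate 3. Of the skeletal myoblast markers only Des was higher in all 6 samples, and Myod1, Myf5, Myog, Pax7, Myh3 and Mymk had no UMI in sub-cluster 7.

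The 25 leading genes were those with the largest log2 ratios among genes of 20 CPM or more that were higher in every sample. Of 6984 genes at 20 CPM or more in either set of cells, 835 (12.0%) were higher in sub-cluster 7 in every sample, and 181 (2.59%) were so with a log2 ratio of 1 or more. The median log2 ratio of all 6984 genes was -0.078. Of the 25, 15 were higher in sub-cluster 7 than in any of the other 12 groups of cells, made of 8 fibroblast sub-clusters and the RPE, Endothelial, Pericyte and Myeloid types. When the genes exceeded only by the Endothelial cells were added, the number was 21. The 25 had been chosen by their ratios over the comparison sub-clusters, which are among these 12 groups. A high rank of sub-cluster 7 was therefore partly set by that choice. No such share of all 6984 genes stands beside these counts, so they are a description only.

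Some leading genes are known from endothelial cells. Esam, an adhesion molecule of endothelial tight junctions, was at 124, 113 and 177 CPM in the Dram2 wt/wt group and at 143, 133 and 116 CPM in the Dram2 ko/ko group, with a mean of 2.88 CPM in sub-clusters 1 to 4 and a log2 ratio of 4.15 ± 0.20 (SD over 6 samples). Cd93, a receptor in endothelial adhesion, followed at 124 against 2.91 CPM, and Sncg (gamma-synuclein) at 106 against 2.36 CPM. Flt1, a VEGF receptor, was at 35.3 against 1.42 CPM. Angpt2, an angiopoietin outside the 25, was at 48.1 against 4.12 CPM. All 5 genes were higher still in the Endothelial cells, where Esam reached 537 CPM over all samples and Cd93 reached 1054 CPM. The defining endothelial genes did not accompany them. Pecam1 and Cdh5 gave 1 UMI each in the 214 cells, at a mean of 0.141 CPM against 643 CPM for Pecam1 in the Endothelial cells, and Cldn5 gave none. Of the 10 endothelial markers 2 were higher and 3 lower in all 6 samples, and their sum was 387 to 764 CPM against 369 to 514 CPM in sub-clusters 1 to 4. After thinning, 46.2% of sub-cluster 7 cells had a UMI of Esam (Wilson interval 39.5 to 52.9), against 1.36% in sub-clusters 1 to 4, 85.9% of Endothelial cells and none of the 292 cells named Pericyte. Before thinning the shares were 80.4% of sub-cluster 7 and 5.91% of sub-clusters 1 to 4.

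Several leading genes belong to oxygen sensing and energy metabolism. Epas1 encodes the hypoxia-inducible factor HIF-2 alpha and was at 181, 177 and 141 CPM in the Dram2 wt/wt group and at 183, 115 and 151 CPM in the Dram2 ko/ko group, against a mean of 13.1 CPM. Ndufa4l2, a hypoxia-responsive mitochondrial protein gene and a pericyte marker, was at 86.9, 68.0 and 63.5 CPM in the Dram2 wt/wt group and at 75.3, 64.0 and 231 CPM in the Dram2 ko/ko group. The highest level in any other group of cells was 4.16 CPM, in sub-cluster 4. In Dram2 ko/ko replicate 3, 1 cell gave 47 of the 133 UMIs of Ndufa4l2, and the level without it was 156 CPM. Cox4i2, the hypoxia-responsive isoform of a cytochrome c oxidase subunit, was at 69.8 to 89.9 CPM in 5 samples and 200 CPM in Dram2 ko/ko replicate 3, the sample of batch 2, which was also the highest for Ndufa4l2. Whether the batch had a part in these 2 high values cannot be told apart, since it held 1 sample. Slc16a3, the lactate exporter MCT4, was at 134 against 16.9 CPM. The glycolysis and hypoxia list followed, with 13 of its 20 members higher in all 6 samples, none lower and a median log2 ratio of 0.67. Its sum was 3339 to 4929 CPM against 2545 to 2907 CPM. By its sum with all samples pooled, the list stood at rank 2 of the 13 groups of cells in sub-cluster 7. Among its members, Vegfa, the main angiogenic growth factor, was at 281 ± 34.2 CPM against 134 CPM.

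Further leading genes included some of contraction, calcium handling and muscle. Lmcd1 was the most abundant after Des, at 473, 480 and 435 CPM in the Dram2 wt/wt group and at 688, 585 and 559 CPM in the Dram2 ko/ko group, against a mean of 48.6 CPM. Kcnmb1, the regulatory subunit of the smooth muscle calcium-activated potassium channel, was at 80.7 ± 17.8 CPM against 2.46 CPM. Trpc6 was at 44.4 against 1.07 CPM and was exceeded only in RPE cells, at 52.9 CPM. Itga1, a collagen-binding integrin subunit of smooth muscle, was at 154 against 14.8 CPM. Mustn1, a small musculoskeletal nuclear protein gene, was at 89.0 against 7.68 CPM and varied between 49.1 and 140 CPM, and Hspb7, a small heat shock protein gene of muscle, varied between 7.55 and 61.6 CPM. Of the 25 leading genes, 4 shared at least 5% of their 3′ sequence with another gene, so that their counts are less certain. These were Trpc6 (34.0%), Bcar3 (25.04%), Des (17.3%) and Kcnmb1 (5.71%).

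**Figure D2:**
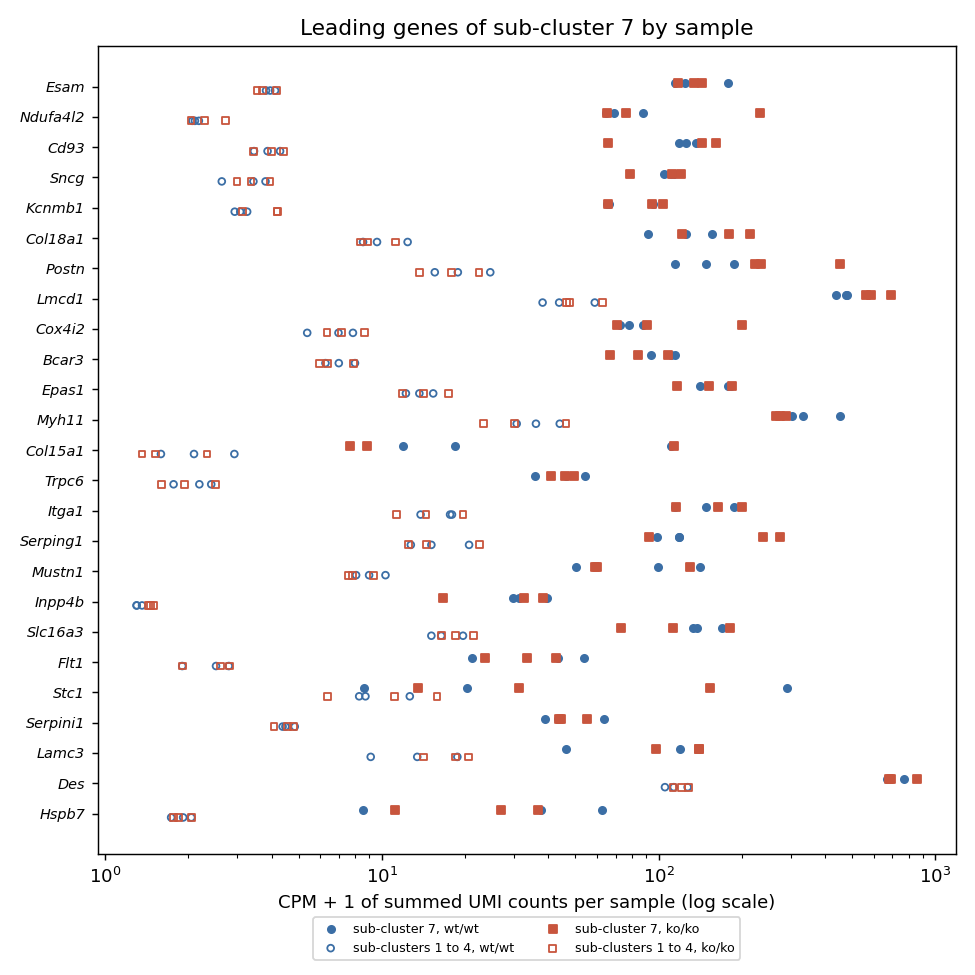
CPM plus 1 (log scale) of the 25 leading genes in each of the 6 samples, with filled symbols for sub-cluster 7 and open symbols for sub-clusters 1 to 4, circles for Dram2 wt/wt and squares for Dram2 ko/ko. In each sample the filled symbol of a gene sits to the right of its open symbol. Across samples the filled and open symbols of Stc1 overlap, with 7.59 to 291 CPM in sub-cluster 7 and 5.37 to 14.8 CPM in sub-clusters 1 to 4.

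Among the other leading genes, 3 encode basement membrane proteins and several others secreted proteins. Col18a1, whose product releases endostatin, was at 147 ± 44.5 CPM against 8.83 CPM, and Lamc3, a laminin chain gene, at 113 against 14.7 CPM. Postn (periostin, a matricellular protein) was at 226 against 17.8 CPM. Serping1, the C1 inhibitor of complement, was at 156 against 15.3 CPM. Col15a1, a basement membrane collagen gene, was uneven, at 10.97, 109.5 and 17.3 CPM in the Dram2 wt/wt group and at 7.87, 6.65 and 113 CPM in the Dram2 ko/ko group. It was high in 1 sample of each genotype, Dram2 ko/ko replicate 3 and Dram2 wt/wt replicate 2. In the latter, 1 cell gave 26 of the 29 UMIs, and without that cell the level was 12.4 CPM. In Dram2 ko/ko replicate 3, 1 cell gave 34 of the 65 UMIs, and the level without it was 56.3 CPM. Stc1, the secreted hormone stanniocalcin 1, was high in the same samples. It stood at 291 CPM in Dram2 wt/wt replicate 2 and 153 CPM in Dram2 ko/ko replicate 3, against 7.59 to 30.3 CPM in the other 4. A single cell gave 43 of the 77 UMIs of Dram2 wt/wt replicate 2. For Dram2 ko/ko replicate 3 a single cell gave 42 of the 88 UMIs, and the level without it was 83.5 CPM. With all samples pooled, Col18a1, Postn and Col15a1 were higher still in the cells named Pericyte. They stood there at 1278, 874 and 223 CPM, against 149, 217 and 28.2 CPM in sub-cluster 7. Col18a1 and Col15a1 were also higher in the Endothelial cells, at 209 and 52.1 CPM. Of the 25 genes of the extracellular matrix list, 11 were higher and 6 lower in all 6 samples, with a median log2 ratio of 0.52 and a sum of 31173 to 49166 CPM against 16249 to 18960 CPM. Fbln2 (fibulin 2) was the member lowest relative to sub-clusters 1 to 4, at 48.0 against 362 CPM. The other leading genes were Bcar3 and Inpp4b, which act in adhesion and phosphoinositide signalling, and Serpini1, a protease inhibitor gene. They stood at 95.3, 30.3 and 47.1 CPM against 5.91, 0.391 and 3.52 CPM.

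Signalling genes outside the leading list differed in both directions. The counts of genes lower in all 6 samples are to be read against the 24.5% of all genes that were so, and the counts of higher genes against 2.96%. Among the 6984 genes at 20 CPM or more, to which many list members belonged, these shares were 22.3% and 12.0%. Of the 20 BMP and TGF-beta ligands and binders, 6 were higher and 3 lower, the latter under the share over all genes. Tgfb2 was at 442 ± 145 CPM against 139 CPM, Tgfb3 at 92.9 ± 35.7 against 34.2 CPM and Bmp2 at 36.5 ± 18.1 against 4.28 CPM, and each was higher in sub-cluster 7 than in any of the other 12 groups of cells. The BMP antagonist Nog was at 42.0 against 107 CPM. In the PDGF and VEGF list, 6 of 20 members were higher and 5 lower, the latter near the share over all genes, with the ligand Pdgfa at 487 ± 70.9 against 150 CPM and the growth factor Fgf7 at 12.5 ± 10.6 against 69.4 CPM. Among IGF pathway genes, Igfbp7, a vascular IGF-binding protein gene, was at 5131 ± 1034 against 1940 CPM, and Igfbp2 and Igfbp6 were at 236 and 9.23 against 911 and 60.1 CPM. Sub-cluster 4 had less Igfbp2 than sub-cluster 7, at 178 against 289 CPM with all samples pooled. Antioxidant genes were lower in all samples for 8 of 20 members and higher for none, and matrix proteases and their inhibitors were lower for 9 of 20 and higher for 1. Of the 10 adipocyte and preadipocyte markers, 3 were higher and 1 lower in all 6 samples. Their sum was 58.2 to 98.2 CPM against 18.2 to 24.5 CPM. By this sum with all samples pooled, sub-cluster 7 stood at rank 3 of the 13 groups of cells. Lpl, the lipoprotein lipase gene, was at 30.2 against 2.77 CPM, while the adipocyte genes Adipoq, Cd36, Cidec and Retn had no UMI. Skeletal myoblast, RPE, melanocyte, Schwann, myeloid, lymphocyte, erythroid and photoreceptor lists held between 0 and 1 members that were higher in all 6 samples.

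The genes lowest relative to sub-clusters 1 to 4 included genes of cell division, secreted factors and matrix. Of the 6984 genes, 1558 (22.3%) were lower in every sample and 239 (3.42%) were so with a log2 ratio of -1 or less. Stmn2, a microtubule regulator, was at 6.75, 30.2 and 63.5 CPM in the Dram2 wt/wt group and at 1.12, 36.5 and 13.9 CPM in the Dram2 ko/ko group, against a mean of 550 CPM, and its pooled level was the lowest of all 13 groups of cells. Sub-cluster 3 was nearly as low, at 31.04 against 22.0 CPM. The cytokine gene Il11 was at 148 ± 147 against 1026 CPM, with 438 CPM in Dram2 wt/wt replicate 2 and 26.9 to 149 CPM in the other samples. It was highest in sub-cluster 3, at 4816 CPM, and at 316 to 380 CPM in sub-clusters 1, 2 and 4. The prostacyclin synthase gene Ptgis was at 4.16 against 62.3 CPM, the adhesion gene Flrt2 at 10.7 against 113 CPM, the calcium-binding protein gene S100a16 at 20.2 against 194 CPM and the collagen gene Col2a1 at 2.26 against 49.95 CPM. For Col2a1, sub-cluster 3 was as low as sub-cluster 7, at 2.29 against 2.80 CPM with all samples pooled. Ube2c, Top2a and Cdk1, which act in mitosis, were at 11.4, 11.04 and 11.8 CPM against 148, 123 and 120 CPM. These 3 genes were highest in sub-cluster 2, at 473, 398 and 366 CPM. Against sub-cluster 1 alone the levels were close, at 13.8, 10.2 and 20.8 CPM there and 10.1, 10.99 and 12.7 CPM in sub-cluster 7 with all samples pooled.

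Single leading genes differed in how many members had them. After thinning to 5000 UMIs, the median cell of sub-cluster 7 had 8 of the 25 leading genes, against 1 in sub-clusters 1 to 4, 6 in Endothelial cells and 3 in the cells named Pericyte. The median by sample lay between 7.5 and 9.5. At that depth Des was found in 88.9%, Lmcd1 in 62.5% and Myh11 in 58.2% of the 208 cells. The other 22 genes were found in 104 cells or fewer, down to 9.62% for Stc1 and 4.81% for Col15a1. The number of leading genes per cell was 5 at the 10th percentile and 12 at the 90th percentile of sub-cluster 7, whose own values chose these genes. At least 5 were found in 328 of 20949 cells of sub-clusters 1 to 4 (1.57%) and in 341 cells in all other fibroblast sub-clusters together, of which 140 were named Fibroblast in sub-cluster 1 and 118 Fibroblast proliferating in sub-cluster 2.

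The deposited names divided the members unevenly. In the 185 cells named Fibroblast, Mgp was at 15219 CPM and Ndufa4l2 at 100.1 CPM. In the 16 cells named Fibroblast 2, Mgp was at 1648 CPM, Il11 at 515 CPM against 93.9 CPM and Serpini1 at 133 against 44.8 CPM, while Myh11 (256 against 317 CPM) and Des (581 against 727 CPM) were nearer to the larger group. Other leading genes were much lower in them, such as Postn, Col18a1, Cox4i2 and Serping1, at 44.2, 22.1, 15.8 and 18.9 against 234, 156, 102 and 167 CPM. Epas1, Sncg and Lamc3 were not lower, at 180, 133 and 129 against 155, 97.1 and 128 CPM. In the 12 cells named Fibroblast proliferating, Mki67 was at 39.1 CPM, Cdk1 at 96.0 CPM and Ube2c at 110.2 CPM, and Mki67 was not counted in the other named groups of the sub-cluster. These are sums over few cells of several samples and have no replicates.

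Mki67 and Top2a mark dividing cells, and a cell was called cycling when their UMIs summed to 2 or more after thinning to 5000 UMIs. No cell met this in sub-cluster 7, 0 of 208 cells, which allows up to 1.44% of cells to meet it when a count of 0 is taken to allow 3 counts, or 1.81% by the upper Wilson limit. These limits cover counting error at the thinned depth and do not limit the share of dividing cells, since the 12 members named Fibroblast proliferating did not meet the criterion either. The share was 16.7% in sub-clusters 1 to 4, and by genotype it was 0.435 ± 0.156% and 0.602 ± 0.160% in sub-cluster 1 (n = 3 each). With no thinning the members gave 4.43 ± 4.80% for Dram2 wt/wt against 7.30 ± 5.37% for Dram2 ko/ko, a difference within the spread between samples (exact two-sided permutation test, p = 0.6). With 1 or more UMIs at the thinned depth the shares were 8.16 ± 7.36% and 7.54 ± 5.32%.

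Whether Dram2 loss altered the abundance of the sub-cluster was asked with its share of the fibroblast sub-clustered cells. The share was 1.48%, 0.329% and 0.516% in Dram2 wt/wt replicates 1 to 3 and 1.28%, 1.24% and 0.678% in Dram2 ko/ko replicates 1 to 3. The Dram2 wt/wt samples held both the highest and the lowest share, so the genotypes overlapped. The means were 0.773 ± 0.615% and 1.07 ± 0.338% (SD, n = 3 each), and the difference of 0.294 percentage points was within the spread between samples (exact two-sided permutation test, p = 0.6, where 3 samples against 3 cannot go below 0.1). Within batch 1, without Dram2 ko/ko replicate 3, the difference was 0.488 percentage points (exact p = 0.6). The difference ranged from 0.0714 without Dram2 wt/wt replicate 2 to 0.645 without Dram2 wt/wt replicate 1.

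**Figure D3:**
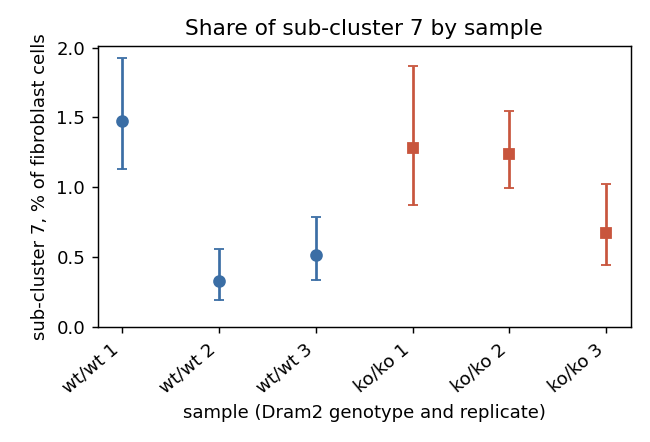
Sub-cluster 7 as a percentage of the cells with a fibroblast sub-cluster in each sample, with 95% Wilson intervals that cover counting error only (circles, Dram2 wt/wt and squares, Dram2 ko/ko). Dram2 wt/wt replicate 1 is highest at 1.48% and Dram2 wt/wt replicate 2 lowest at 0.329%.

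Differences between genotypes within sub-cluster 7 were few. The targeted gene was examined before the others. Dram2 (chr3:106547798-106575890 on GRCm38) was at 31.2, 37.8 and 40.4 CPM in the Dram2 wt/wt group and at 36.0, 19.9 and 33.0 CPM in the Dram2 ko/ko group, which overlapped (log2 fold change -0.31, SE 0.29, voom-limma adjusted p = 0.919). The libraries read the 3′ end of the transcript, outside the deleted exon 4, so this level does not check the genotype. Dram1, its paralog, and Mki67 were too low to be tested. With voom-limma on the summed counts and Benjamini-Hochberg adjustment, 31 of 7711 genes (0.402%) passed an adjusted p of 0.05, of which 2 were higher and 29 lower in Dram2 ko/ko. At an unadjusted p under 0.05 there were 557 genes (7.22%). The genotypes did not overlap for any of the 31. Of all genes tested, 4.23% had every Dram2 ko/ko value above, and 8.08% had every one below, the Dram2 wt/wt range. The call depended on single samples: without Dram2 wt/wt replicate 3 no gene passed (492 at an unadjusted p under 0.05), without Dram2 wt/wt replicate 1 there were 11, and without Dram2 wt/wt replicate 2, which had 13 cells, there were 8. Within batch 1, without Dram2 ko/ko replicate 3, there were 22. When replicate 1 of Dram2 ko/ko was dropped 36 genes passed, all lower. When replicate 2 of that genotype was dropped 44 passed, 21 higher and 23 lower, so that lower genes did not predominate without that sample.

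Car8 and Col6a3 were the genes that rose in Dram2 ko/ko. Car8 (chr4:8143362-8239041), which encodes a carbonic anhydrase-related protein that binds the IP3 receptor, was at 21.1, 3.78 and 7.70 CPM in the Dram2 wt/wt group and at 71.9, 57.3 and 79.8 CPM in the Dram2 ko/ko group. The log2 fold change was 2.41 (SE 0.42, voom-limma adjusted p = 0.0296). Single cells carried much of it. A single cell gave 41 of the 64 UMIs in Dram2 ko/ko replicate 1 and 40 of the 46 UMIs in Dram2 ko/ko replicate 3. Without the highest cell of each sample Dram2 wt/wt stood at 13.9, 0 and 4.05 CPM against 27.3, 50.9 and 11.5 CPM for Dram2 ko/ko, and the genotypes overlapped. A UMI of Car8 was found in 7 of 53, 1 of 13 and 3 of 21 cells in Dram2 wt/wt replicates 1 to 3. In Dram2 ko/ko replicates 1 to 3 it was found in 7 of 26, 25 of 79 and 3 of 22 cells. These shares overlapped between the genotypes. Of the 3′ sequence of Car8, 12.4% occurred in another gene, so that part of its counts could not be assigned with certainty. In sub-clusters 1 to 4 Car8 was at 8.54 and 10.3 CPM in the genotypes.

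Col6a3 (chr1:90765923-90843971), which encodes a chain of the microfibrillar collagen VI, was at 120, 151 and 117 CPM in the Dram2 wt/wt group and at 258, 188 and 305 CPM in the Dram2 ko/ko group. The groups did not overlap, and the log2 fold change was 0.98 (SE 0.20, voom-limma adjusted p = 0.0490). Without the highest cell of each sample they did not overlap either, at 61.8 to 98.5 CPM against 166 to 239 CPM. In sub-clusters 1 to 4 Col6a3 was at 34.9 and 30.6 CPM. For both genes the call was lost when any Dram2 wt/wt sample was left out, and likewise for replicates 1 and 3 of Dram2 ko/ko, with adjusted p up to 0.264 for Car8 and 0.299 for Col6a3 by voom-limma. The log2 fold changes stayed positive in these fits, at 1.93 to 3.28 for Car8 and 0.85 to 1.05 for Col6a3. With batch as a covariate the adjusted p of Col6a3 was 0.0885, and with library size alone as the scaling it was 0.0518. The interaction, which asks whether the genotype difference in sub-cluster 7 is unlike that in sub-clusters 1 to 4, was 2.43 for Car8 (unadjusted p = 0.00236) and 1.13 for Col6a3 (unadjusted p = 0.00150) on the log2 scale, with an adjusted p of 0.901 for both in voom-limma over 20188 genes. None of the 20188 genes (0.0%) passed for the interaction in voom-limma, with 1088 at an unadjusted p under 0.05, whereas 71 passed in edgeR's quasi-likelihood test.

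**Figure D4:**
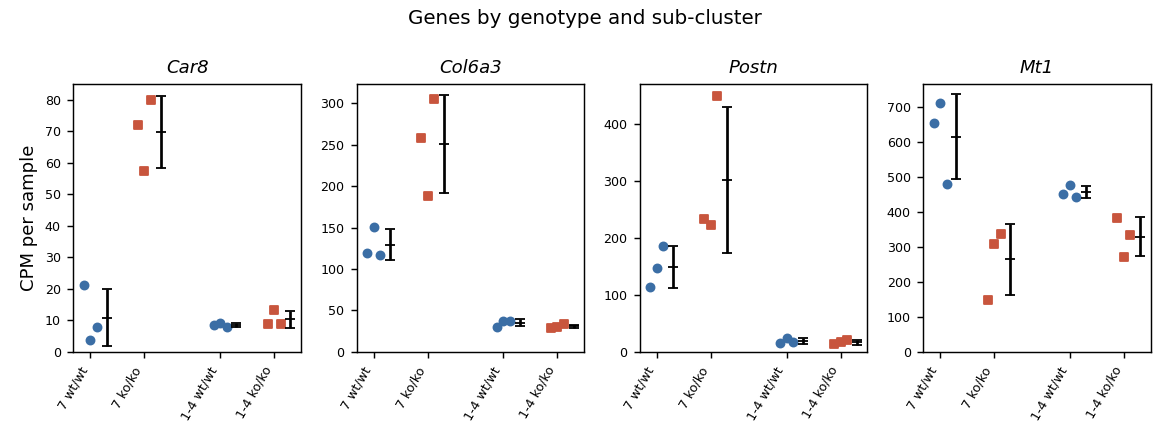
CPM of Car8, Col6a3, Postn and Mt1 in each sample, in sub-cluster 7 and in sub-clusters 1 to 4, by genotype (blue circles, Dram2 wt/wt and red squares, Dram2 ko/ko, with bars for mean ± SD, n = 3). In sub-cluster 7 the genotypes do not overlap for any of the 4 genes, and in sub-clusters 1 to 4 Car8, Col6a3 and Postn lie at 37.5 CPM or less in every sample. For Mt1 the genotypes do not overlap in sub-clusters 1 to 4 either, at 443 to 478 CPM in Dram2 wt/wt against 272 to 384 CPM in Dram2 ko/ko.

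Other matrix genes leaned the same way as Col6a3 without passing the test. Of the 25 genes of the extracellular matrix list 23 were tested, 1 was called (Col6a3), and 19 had a positive and 4 a negative log2 fold change, where 50.2% of all genes tested were positive. Between 17 and 21 were positive with each sample left out, and 19 with RLE size factors or library size alone as the scaling. Their median log2 fold change was 0.38, against 0.00079 over all 7711 genes. In sub-clusters 1 to 4, the same 23 genes had 5 positive and 18 negative values. The lean in sub-cluster 7 was not particular to the matrix list. Positive values were found for 7 of 7 pericyte genes and 12 of 13 matrix proteases and inhibitors. The myofibroblast and fibroblast lists, which share members with the matrix list, had 17 of 19 and 7 of 8. With each sample left out, 5 or 6 of the 6 or 7 pericyte genes tested were positive, and 5 of 7 with batch as a covariate. The hypoxia and glycolysis list went the other way, with 5 of 16 positive. Postn was at 114, 147 and 187 CPM in the Dram2 wt/wt group and at 234, 223 and 450 CPM in the Dram2 ko/ko group, with no overlap and a log2 fold change of 1.01 (SE 0.25, voom-limma adjusted p = 0.130). Sparc, a collagen-binding matricellular protein gene, was at 6610 against 8981 CPM (log2 fold change 0.47, adjusted p = 0.282 by voom-limma), and Mgp at 11512 ± 2113 against 15425 ± 3460 CPM (log2 fold change 0.44, adjusted p = 0.560). None of the 7 pericyte and 9 smooth muscle genes tested was called. The median log2 fold changes of these lists were 0.39 and 0.093. These medians moved with single samples. Leaving out Dram2 ko/ko replicate 3, which leaves batch 1, gave 0.059 for the pericyte list, and leaving out replicate 1 or replicate 2 of that genotype gave 0.24 or 0.62. The smooth muscle median became 0.22 when Dram2 ko/ko replicate 2 was dropped, 0.15 when replicate 1 was, and 0.17 when either replicate 2 or replicate 3 of Dram2 wt/wt was. Myh11 was at 361 ± 78.5 against 275 ± 12.1 CPM (adjusted p = 0.690). None of the 25 leading genes was called, and 12 of them had a positive value.

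The 29 genes that fell in Dram2 ko/ko comprised 10 ribosomal protein genes, 10 pseudogenes and 9 others. The shares of these kinds among the 7711 genes tested were not computed, so the counts are a description only. Of the 29, the 5 with the largest decreases were the pseudogenes Gm11598, Rps15a-ps2, Gm10086 and Rps15-ps2 and the splicing factor gene Snrpg. Their log2 fold changes lay between -2.07 and -1.74. Rps20, a ribosomal protein gene, was at 570, 623 and 620 CPM in the Dram2 wt/wt group and at 298, 204 and 156 CPM in the Dram2 ko/ko group. In 27 of the 29, at least 5% of the last 400 bases of transcript sequence occurred in another gene. The sequence was read in words of 31 bases on either strand. Reads of such stretches cannot be assigned to 1 gene with certainty, so these values are uncertain. Shared sequence was computed only for genes named or called here, so no share over all tested genes stands beside the 27. All 29 also had a negative log2 fold change in sub-clusters 1 to 4, with a median of -1.25 there and -1.33 in sub-cluster 7. In sub-clusters 1 to 4, 2 of 21839 genes passed the test.

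Metallothioneins, which bind zinc and copper, fell as well. Mt1 (chr8:94179082-94180327) was at 656, 714 and 479 CPM in the Dram2 wt/wt group and at 148, 308 and 338 CPM in the Dram2 ko/ko group (log2 fold change -1.25, SE 0.25, voom-limma adjusted p = 0.0423), and none of its 3′ sequence was shared. Mt2 went from a mean of 89.98 to 38.2 CPM with the same adjusted p, with 48.1% of its 3′ sequence shared. In sub-clusters 1 to 4 Mt1 was at 457 and 330 CPM, again with no overlap between genotypes, and the log2 fold change of -0.48 there did not pass (voom-limma adjusted p = 0.135). The interaction of -0.69 for Mt1 did not pass either (adjusted p = 0.926).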

How the data were processed

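UMI counts per gene and cell were deposited by the authors in 1 table of 52636 genes and 25428 cells, made from 10x Genomics 3′ v2 libraries by Cell Ranger (3.1.0 in the submitters' processing notes) on GRCm38 with exons only. The counts were not normalised. Sample, cell type name and sub-cluster of each cell came from the authors' table of cells, where clusters had been made in Seurat after integration by batch. The members and gene lists were chosen with earlier results of these data known.

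Counts were summed per sample over the cells of sub-cluster 7 and of sub-clusters 1 to 4, using samples with 10 or more members (all 6), and given as CPM. The genes named in each comparison were the 25 with the largest and the 10 with the lowest log2 ratio (5 CPM added) among those of 20 CPM or more that differed the same way in all samples, up to 5 called genes per direction between genotypes, Dram2, Dram1, Mki67, Top2a, Mgp and Dcn, and up to 3 members per list with the largest absolute log2 ratio at 20 CPM or more. Further list members were chosen after their values were seen. The 49 lists comprised 27 of cell type markers and 22 of pathways.

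Genotypes were compared with voom-limma (limma 3.58.1, edgeR 4.0.16, R 4.3.3) after filterByExpr and TMM scaling, with no covariate. The interaction model had sample as a factor. On simulated counts for 7498 genes of the genotype comparison in sub-cluster 7, 66% of 2-fold and 96% of 4-fold changes were found, with 9 false calls. The simulation gave every gene the same spread and changed only genes over 20 CPM. These rates therefore may not hold for the real sums, where single cells carried much of some genes. Single values were compared with exact permutation tests (scipy 1.17.1). Positions are of GENCODE M21, which held 52489 of the gene identifiers. Alternatives covered edgeR, DESeq2 (1.42.0), scaling, filters, batch, replicate number, cell filters, comparators, pseudocounts, thinning depth and each sample left out.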

Additional observations from a re-analysis of the deposited data

How the results depend on the processing

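The number of genes called between genotypes in sub-cluster 7 was 31 as reported and lay between 0 and 44 with each sample left out, at 86 with no filter on low counts, 8 with a minimum of 20 cells (which leaves out Dram2 wt/wt replicate 2) and 16 with the replicate number as a block. With the block 13 of the 31 genes were kept, and Col6a3 was not (voom-limma adjusted p = 0.0577). Same-numbered samples did not deviate together (r of -0.14, -0.18 and -0.05), so the numbers were not taken as pairs. The share kept its direction under each alternative, with an exact p of 0.75 as a replicate block. Genes that passed the leading criteria with a log2 ratio of 1 or more numbered 181, 106 with 20 CPM added and 322 against sub-cluster 4 alone, a comparison added after seeing the data, which kept 19 and 16 of the 25. The 25 leading genes kept a log2 ratio of 1.25 or more under every alternative. The cycling share differed by 2.87 percentage points (Dram2 ko/ko minus Dram2 wt/wt) with no thinning, -0.626 with 1 or more UMIs and -1.59 after thinning to 2500 UMIs, where it was 0 as reported. The interaction gave 71 genes by edgeR and 0 in voom-limma with each sample left out. With each sample left out, the genotype log2 fold change of Dram2 lay between -0.52 and 0.038 and its log2 ratio between -0.081 and 0.019, both positive without Dram2 ko/ko replicate 2. Signs also turned for log2 ratios against sub-cluster 1 alone (Top2a 0.073, Mki67 0.22) and sub-cluster 4 alone (Top2a 0.16, Mki67 0.28, Dram2 0.068). The cause was not tested. Depth limits rare genes: the smallest sum of sub-cluster 7 was 264850 UMIs.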
